A study of Rattus norvegicus with 9 samples.

Results

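The transcriptome of the tissue that regrows after partial removal of the rat meniscus was compared with that of the synovium of sham-operated knees. The comparison takes 6 of the 9 libraries of the series, 3 of regenerating tissue (pMx) and 3 of sham synovium, and covers all 16512 genes that were above 0 TPM (a level corrected for the length of the transcript and scaled to the same sum in each library) in at least 3 of the 9 libraries. All rats were young adult wild-type male Lewis rats. In the pMx group the front part of the medial meniscus was cut out after transection of its tibial ligament, and 1 week later the new tissue was excised at its border with the remaining posterior horn and freed of synovium. In the sham group the joint capsule was opened and closed, and synovium around the medial meniscus was taken 1 week later. The remaining 3 libraries, synovium of unoperated (intact) knees, entered the fit for its estimate of the spread, and their values are given only as a reference. The groups thus differed in the tissue sampled as well as in the operation, and the contributions of tissue and surgery cannot be told apart. The pMx surgery was done on both knees, and the sources do not say how many knees or animals made up a library.

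The meniscus is a wedge of fibrocartilage whose cells, called fibrochondrocytes, lay down type I collagen together with the aggrecan and small proteoglycans of cartilage. Synovium is built differently. A thin lining of macrophages and lubricin-secreting fibroblasts faces the joint cavity, and beneath it lies a loose layer of fibroblasts with fat, vessels, nerves and mast cells. Repair tissue of the joint typically starts as a dividing population of fibroblasts that secrete a provisional matrix, and it is colonised by vessels and nerves to varying degrees.

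A gene was called when its adjusted p in limma was below 0.05 and its log2 fold change, on the log2(TPM + 1) scale, was above 1 in size. By this rule 8.21% of the genes tested were called in either direction, 3.36% (554 genes) higher and 4.85% (801 genes) lower in the pMx group, and these shares are the background for every count of list members given here. The median log2 fold change over all genes was -0.01. The changes reached furthest on the lower side, where Myoc and Adipoq lost over 7 log2 units. The largest increase over all genes tested was 3.63. Among called genes whose groups did not overlap, outside the collagens and unnamed loci, it was 3.43. The 70 gene lists used here held 2453 of the 16512 genes tested and 506 of the 1355 called genes. Most called genes thus lay outside the lists, as did most genes tested.

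**Figure D1:**
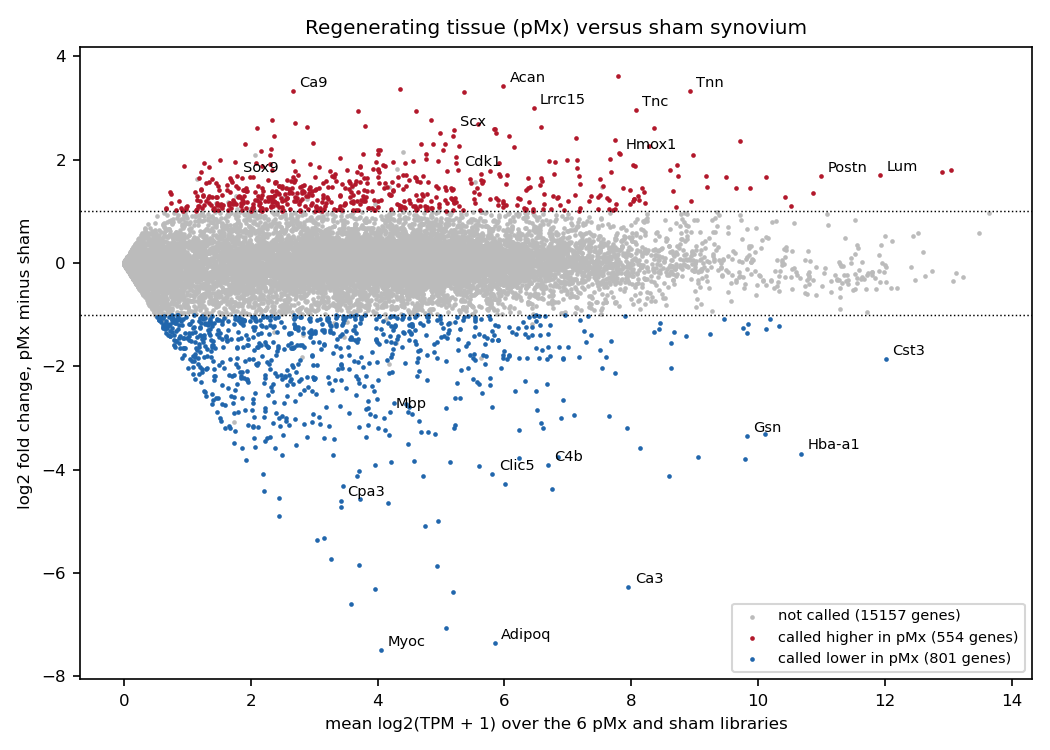
Each point is a gene. The horizontal axis is its mean log2(TPM + 1) over the 6 pMx and sham libraries, and the vertical axis its log2 fold change of pMx minus sham. Red points are the 554 genes called higher and blue points the 801 called lower, with dotted lines at the fold-change threshold. The decreases extend to -7.50 (Myoc), and the lower left edge is the limit set by genes that were near 0 TPM in pMx libraries.

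The libraries of each group resembled each other more than those of the other group. Pearson correlations of log2(TPM + 1) across genes, which are not independent replicates, ran from 0.9874 to 0.9957 within pMx, from 0.9894 to 0.9936 within sham and from 0.9497 to 0.9653 between them. The 10 highest genes took 10.5 to 10.9% of all TPM in pMx libraries and 8.08 to 8.54% in sham libraries. Since TPM keeps no read numbers, the sequencing depth is unknown and counting error cannot be stated. The RNA integrity listed by the study was higher in pMx than in sham without overlap, and its part in the results was not tested. Skeletal muscle genes varied without regard to group. Their summed level was 2235, 4861 and 467 TPM in sham libraries and 4222, 5011 and 154 TPM in pMx libraries, and none of the 27 genes was called (0 also at an unadjusted p below 0.05). Intact replicate 3, at 69704 TPM, stood apart on this list. Without it, 564 genes were called higher and 810 lower.

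Genes of white fat cells showed the most uniform decrease. All 22 adipocyte genes were called lower, with a median log2 fold change of -3.23. Adiponectin (Adipoq), the main hormone of fat cells, was at 879.7, 699 and 649 TPM in sham libraries and at 3.2, 0.71 and 11.7 TPM in pMx libraries (log2 fold change -7.36, SE 0.98, limma adjusted p = 0.000629). Levels in pMx libraries were a small fraction of those in any sham library, though pMx replicate 3 kept more than the others. The lipid droplet coat genes Plin1 and Cidec and the adipokine Retn fell by similar amounts, to means of 0.873, 0.827 and 3.79 TPM from 98.9, 137 and 237 TPM. The summed level of the list was 7992, 7629 and 6738 TPM in the sham and 519, 532 and 792 TPM in pMx libraries, and it lay between 4180 and 10643 TPM in the intact libraries. In bulk tissue, fewer cells of a type and less RNA per cell cannot be told apart, here and for all cell type lists below.

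Lipid-making enzymes shared with fat tissue fell with it. Thrsp, a regulator of lipogenesis, was at 346, 462 and 375 TPM in sham and 1.79, 0.56 and 4.86 TPM in pMx libraries. Scd, which desaturates fatty acids, went from a mean of 361 to 3.16 TPM, and the triglyceride-forming enzyme Dgat2 from 110.4 to 11.6 TPM. In all, 7 of 26 genes of fatty acid and triglyceride synthesis were called lower and 12 were lower by the adjusted p alone, against 4 higher. Of these Mogat2, an acyltransferase, was called (1.23 to 3.54 TPM, log2 fold change 1.03), but not without sham replicate 3 or pMx replicate 3. Fatty acid synthase itself (Fasn) was at 57.2, 124 and 109 TPM in the sham and 26.1, 25.1 and 24.3 TPM in pMx libraries and was not called (adjusted p = 0.0658 from limma), although it was when intact replicate 3 was left out (adjusted p = 0.0151 from limma).

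Mast cell genes also fell. Of 11 genes, 7 were called lower and the median log2 fold change was -2.02. The granule protease carboxypeptidase A3 (Cpa3) was at 49.8, 38.5 and 72.9 TPM in sham and 1.75, 1.31 and 0.64 TPM in pMx libraries (log2 fold change -4.60, SE 0.44, limma adjusted p = 0.000129). The chymase Cma1, the tryptase Tpsb2 and the prostaglandin D synthase Hpgds fell from means of 60.5, 15.2 and 9.54 TPM to 3.06, 0.57 and 0.1 TPM. Kit, the receptor that mast cells need to survive but which other cells also carry, was at 6.29 TPM in sham and 4.92 TPM in pMx and was not called.

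Peripheral nerve was represented by its glia. Schwann cell genes were called lower in 9 of 20 cases and higher in none. Myelin basic protein (Mbp), which compacts the myelin sheath, was at 52.01, 44.5 and 50.3 TPM in sham libraries, 57.9, 70.5 and 38.1 TPM in the intact libraries and 5.46, 6.48 and 5.23 TPM in pMx libraries (log2 fold change -2.89, SE 0.20, limma adjusted p = 3.33e-05). The glial transcription factor Sox10 fell by 1.5 on the log2 scale. Growth factors for nerve moved in the same direction. Of 22 genes of neurotrophic ligands and receptors, 7 were lower, among them the ligand neurotrophin-3 (Ntf3, 7.55 to 0.307 TPM, log2 fold change -2.70) and the receptors Ntrk2 (22.9 to 5.56 TPM, log2 fold change -1.90) and Gfra3 (3.91 to 0.383 TPM, log2 fold change -1.83).

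Some genes of the vessel wall and of lymphatics fell. Pecam1, a junction protein of all vessels, was at 180.3, 198 and 175 TPM in the sham and 149.8, 149 and 194 TPM in pMx libraries and was not called, nor was Cdh5, the endothelial cadherin. Only 3 of 22 blood endothelial genes were called lower, namely Ace, the angiotensin-converting enzyme, the barrier claudin Cldn5 and the endothelial proteoglycan Esm1, whose call was lost without sham replicate 2 (log2 fold change -0.96) or pMx replicate 2 (-0.78). The vessel growth peptide Apln was the 1 member called higher (4.93 to 11.7 TPM, log2 fold change 1.07), and its call was lost without pMx replicate 3. Lymphatic genes fell in 4 of 9 cases, including the chemokine Ccl21 (278 to 21 TPM, log2 fold change -3.78) and the hyaluronan receptor Lyve1 (21.3 to 3.69 TPM, log2 fold change -2.26), whereas the secreted guidance protein Reln rose (3.19 to 9.16 TPM, log2 fold change 1.27). Smooth muscle and pericyte genes fell in 7 of 18 cases. Smooth muscle myosin (Myh11) was at 239, 221 and 278 TPM in sham and 29.8, 29.3 and 41.1 TPM in pMx libraries (log2 fold change -2.85, SE 0.22, limma adjusted p = 5.2e-05). The contractile genes Cnn1, Synpo2 and Lmod1 fell along with it, by 2.31, 2.64 and 2.47 on the log2 scale. Smooth muscle actin (Acta2), also a marker of contractile myofibroblasts, was at 1369, 1311 and 1683 TPM in sham and 569.6, 530.2 and 594 TPM in pMx libraries, a log2 fold change of -1.36.

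Red cell transcripts separated the groups by a wide margin. Globin chain genes were called lower together with other erythroid genes (6 of 12). Hba-a1 was at 4905, 5446 and 7662 TPM in sham and 450.4, 431 and 488 TPM in pMx libraries (log2 fold change -3.69, SE 0.25, limma adjusted p = 3.1e-05). The intact libraries held still more, with 10009, 19229 and 12869 TPM. Near-identical globin copies share reads, so the split among Hba-a1, Hba-a2, Hbb and Hbb-b1 is uncertain, but their fold changes were alike, from -3.79 to -3.69. The part that the blood content of the samples had in other results was not tested.

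**Figure D2:**
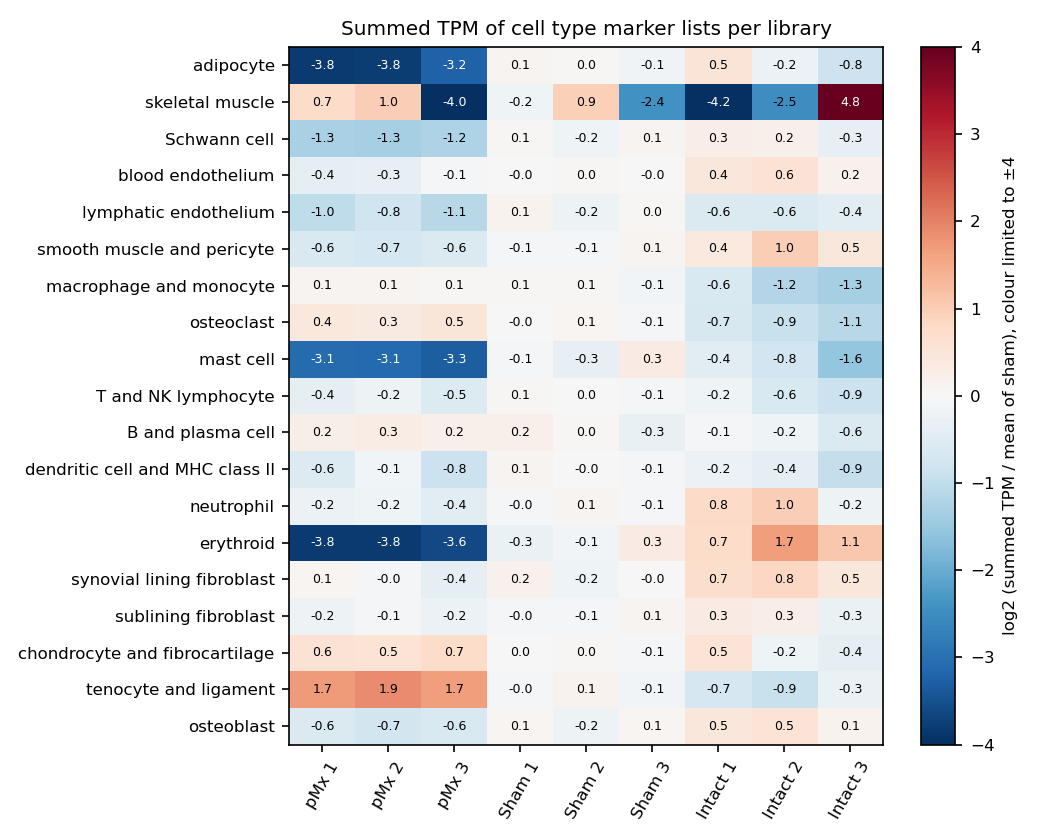
Each cell is the log2 ratio of a marker list's summed TPM in a library (columns) to its mean over the 3 sham libraries, for 19 cell type lists (rows), with the colour limited to 4 in either direction. Adipocyte, mast cell and erythroid lists lie at -3.07 or below in every pMx library and the tenocyte list at 1.66 or above, while the skeletal muscle list varies within all groups.

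The called macrophage genes were all lower. The summed TPM of the macrophage list was 10506, 10540.0 and 9389 in the sham and 11011, 10858 and 10526 in pMx libraries, and 4 of 27 genes were called, all lower. The general macrophage genes Csf1r, the receptor for their growth factor, and Adgre1 were not called, and Cd68, a lysosomal protein of macrophages, was at 147, 166 and 138 TPM in sham and 228, 209 and 189.7 TPM in pMx libraries (log2 fold change 0.47, below the fold threshold, with a limma adjusted p = 0.0428). Of the 4, the complement receptor Vsig4 (72.8, 40.5 and 66.3 TPM in sham, 10.2, 8.69 and 4.76 TPM in pMx libraries), Timd4, a receptor for dying cells, and the haemoglobin scavenger receptor Cd163 fell by 2.79, 2.32 and 2.24 on the log2 scale. The groups did not overlap for any of these receptors, as for 56.1% of all genes tested. The fourth was Ccr2, a chemokine receptor of monocytes (17.2 to 7.77 TPM, log2 fold change -1.08, limma adjusted p = 0.0285), whose call was lost when any sham library was left out (limma adjusted p from 0.0529 to 0.0857) and without pMx replicate 1 (0.0804) or 3 (0.0947).

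Itgax, the integrin CD11c of dendritic cells and of some macrophages, rose instead. It was at 6.67, 12.2 and 3.48 TPM in sham and 33.05, 36.8 and 32.98 TPM in pMx libraries (log2 fold change 2.20, SE 0.33, limma adjusted p = 0.00116). The lectin Clec10a fell from 83.3 to 24.5 TPM. RT1-Da, a chain of MHC class II, was not called, at 700.4 TPM in sham and 394 TPM in pMx (log2 fold change -0.86, or -1.07 and called without pMx replicate 2). T and NK cell genes were called in 1 of 22 cases, the T cell co-receptor chain Cd8b, which rose (2.02 to 5.55 TPM, log2 fold change 1.12), and this number was 0 without sham replicate 3 or pMx replicate 2 and 2 without sham replicate 2 or pMx replicate 3. Of 16 neutrophil genes only the granule enzyme Mpo was called, at 14.4, 11.7 and 9.24 TPM in sham and 0.05, 0.06 and 0.06 TPM in pMx libraries (log2 fold change -3.57, SE 0.64, limma adjusted p = 0.00283), and the number called lower rose to 3 without intact replicate 3 and to 2 without sham replicate 1 or pMx replicate 2.

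Genes of the synovial lining moved unequally. Lubricin (Prg4), the boundary lubricant secreted by the lining and by the surface of cartilage and meniscus, was at 1451, 1245 and 1248 TPM in sham and 1738, 1537 and 1084 TPM in pMx libraries, so the ranges overlapped and the log2 fold change of 0.12 was not called. The lining genes Clic5, an actin-associated chloride channel protein, and Htra4, a serine protease, fell steeply. Clic5 was at 308, 157 and 253 TPM in sham and 17.2, 13.1 and 8.86 TPM in pMx libraries (log2 fold change -4.09, SE 0.27, limma adjusted p = 3.06e-05), and Htra4 at 866, 549 and 849.8 and 99.1, 91.9 and 55.98 TPM (log2 fold change -3.19). Both were called in every alternative analysis. Lining genes called lower numbered 4 of 10, or 2 of 10 without sham replicate 1 or without pMx replicate 3, and rescaling without collagen, fat, muscle and globin genes also left 2.

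The sublining list held changes in both directions. Of its 18 genes, 10 were lower and 3 higher. Among those that fell, Pi16, known from fibroblasts around vessels, was at 123, 116 and 133 TPM in sham and 33.5, 34.7 and 32.2 TPM in pMx libraries (log2 fold change -1.86, SE 0.20, limma adjusted p = 0.000222). Dpp4, the peptidase CD26, the lipid carrier Apod, the actin-severing protein Gsn and the plasminogen-binding Clec3b fell by 2.31, 4.57, 3.35 and 3.20 on the log2 scale. The 3 genes that rose are known from activated, matrix-forming fibroblasts. They were Lrrc15, at 31.3, 43.9 and 19.6 TPM in sham and 246, 276 and 226 TPM in pMx libraries (log2 fold change 3.01, SE 0.24, limma adjusted p = 6.11e-05), periostin (Postn, 1141 to 3664 TPM, log2 fold change 1.68) and the surface protein Thy1 (326 to 1037 TPM, log2 fold change 1.69). In the intact libraries Lrrc15 was at 1.05, 0.92 and 0.75 TPM.

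Tendon and fibrocartilage genes rose in selected members. Of 10 tenocyte and ligament genes, 4 were called higher. Scleraxis (Scx), the transcription factor that marks tendon and meniscus progenitors, was at 12.7, 21.7 and 10.04 TPM in sham, 95.3, 95.1 and 77.3 TPM in pMx and 1.97, 2.16 and 15.6 TPM in intact libraries (log2 fold change 2.57, SE 0.61, limma adjusted p = 0.0107). Every pMx library exceeded the highest sham library by over 3-fold. Tenascin C (Tnc) went from 127, 109 and 63.5 to 738, 870.0 and 656 TPM, and thrombospondin 4 (Thbs4) from a mean of 209 to 728 TPM. The late tendon gene tenomodulin (Tnmd) was at 17.5, 19.96 and 48.3 TPM in sham and 86.3, 133 and 42.6 TPM in pMx libraries and was not called (adjusted p = 0.125 from limma), although it was without intact replicate 3 (adjusted p = 0.0295 from limma). Angptl7 was the only tenocyte gene called lower (7.7 to 0.45 TPM, log2 fold change -2.46), and without pMx replicate 3 there were 2.

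In the chondrocyte list 6 of 25 genes rose and 2 fell. Aggrecan (Acan), the large proteoglycan that gives cartilage its compressive stiffness, was at 32.5, 26.4 and 6.84 TPM in sham, 205, 182 and 236 TPM in pMx and 2.01, 0.49 and 0.25 TPM in intact libraries (log2 fold change 3.43, SE 0.53, limma adjusted p = 0.00136). Among called genes whose groups did not overlap, Acan had the largest increase outside the collagens and unnamed loci. The master regulator of cartilage Sox9 rose at a low level, from 1.23, 1.06 and 0.55 to 4.55, 5.07 and 5.92 TPM (log2 fold change 1.68, SE 0.14, limma adjusted p = 7.92e-05), and the link protein Hapln1, which fixes aggrecan to hyaluronan, from 1.04 to 5.05 TPM. Fibromodulin (Fmod), a collagen-binding proteoglycan, was at 248 TPM in sham and 653 TPM in pMx. The cartilage matrix protein Comp was at 565, 471 and 500.1 TPM in sham and 802, 786 and 933 TPM in pMx libraries, and was not called (log2 fold change 0.71 with a limma adjusted p = 0.0865). The genes that fell were Cytl1, a secreted cartilage protein, and Ucma, a product of growth plate and fibrocartilage (109 to 5.55 TPM, log2 fold change -4.12 and 21.9 to 1.71 TPM, log2 fold change -3.07). Sox5, a partner of Sox9, was not called (-0.47).

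Bone-forming genes gave no uniform picture. The osteoblast regulators Runx2 (2.43 to 7.67 TPM, log2 fold change 1.36) and Sp7 (0.483 to 3.4 TPM, log2 fold change 1.58) rose, while the bone proteoglycan Omd (31.2 to 3.28 TPM, log2 fold change -2.90) and the mineral regulator Phex (6.76 to 0.663 TPM, log2 fold change -2.22) fell and osteocalcin (Bglap) stayed below 1 TPM in both means.

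**Figure D3:**
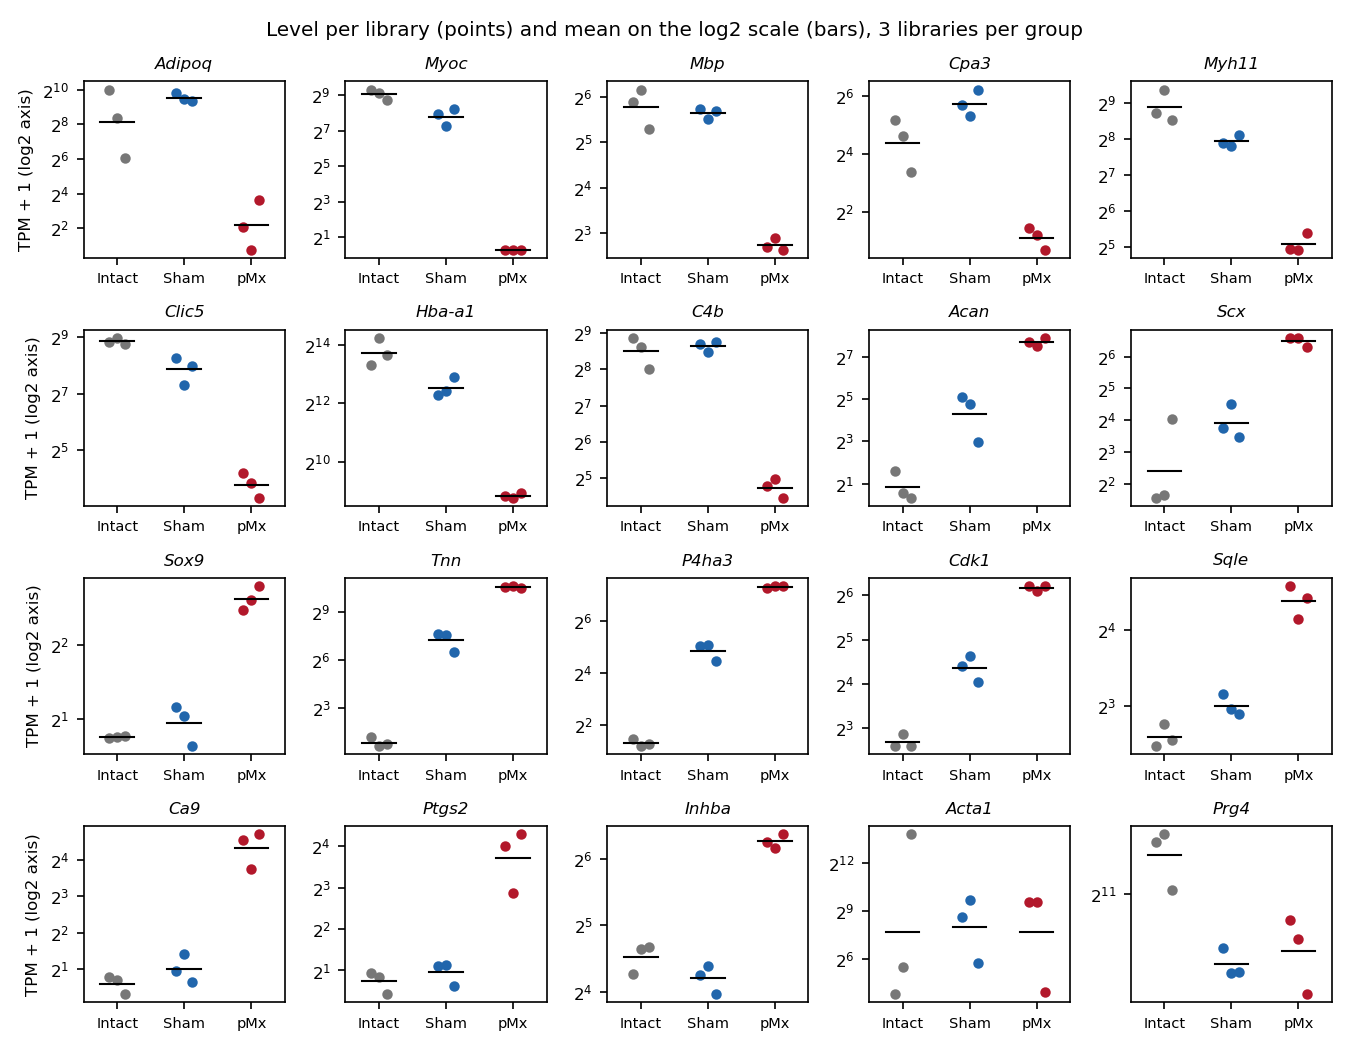
TPM + 1 on a log2 axis for 20 genes, with points for each of the 3 intact (grey), 3 sham (blue) and 3 pMx (red) libraries and black bars at the mean on the log2 scale. Fat, nerve, mast cell, smooth muscle and lining genes sit far below the sham points in pMx, matrix and proliferation genes sit above them, and Acta1 and Prg4 overlap. The vertical range differs between panels.

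Enzymes that modify and cross-link collagen rose in many cases. Of 26 genes for processing and cross-linking, 12 were called higher and 1 lower, and 22 were higher by the adjusted p alone. P4ha3, a subunit of the enzyme that hydroxylates proline in procollagen, was at 31.4, 32.3 and 20.99 TPM in sham, 150.3, 159 and 159.9 TPM in pMx and 1.77, 1.28 and 1.42 TPM in intact libraries (log2 fold change 2.45, SE 0.15, limma adjusted p = 2.76e-05). Lysyl oxidase (Lox), which cross-links collagen and elastin outside the cell, was at 67.98, 80.5 and 61.9 TPM in sham and 295, 271 and 281 TPM in pMx libraries (log2 fold change 2.00, SE 0.17, limma adjusted p = 7.25e-05). Its relative Loxl2 rose by 1.25 on the log2 scale and Loxl1 did not reach the fold threshold (0.45). The prolyl 3-hydroxylase P3h1 and its partner P3h4 rose to 145 and 118 TPM, from 46.2 and 35.6 TPM, while the basement-membrane isoform P3h2 fell (5.16 to 1.86 TPM, log2 fold change -1.11).

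Genes of the secretory pathway were higher in most cases, by less than the fold threshold. For chaperones of the endoplasmic reticulum (ER), 22 of 30 genes passed the adjusted p as higher and 1 as lower, with a median log2 fold change of 0.56. The 3 called were the collagen chaperone Serpinh1 (1157 to 2981 TPM, log2 fold change 1.37), the procollagen-binding isomerase Fkbp10 (154 to 409 TPM, log2 fold change 1.41) and the disulphide isomerase Txndc5 (169.7 to 376 TPM, log2 fold change 1.15). Hspa5, the general chaperone BiP, was at 298, 285 and 244 TPM in sham and 491, 496 and 489.9 TPM in pMx libraries (log2 fold change 0.84). For ER translocation and export in COPII vesicles, 34 of 47 genes passed as higher and 6 were called. These included Sec61a1, the channel through which proteins enter the ER (113 to 275 TPM, log2 fold change 1.28), and the retrieval receptors Kdelr2 and Kdelr3 (1.31 and 1.13). For the proteasome, which degrades cytosolic proteins, limma called none of 33 genes (16 had an unadjusted p below 0.05) and the median was 0.07.

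Matrix genes beyond the collagens moved in both directions. Among 49 matricellular proteins and glycoproteins, 14 rose and 9 fell. Tenascin N (Tnn), found in periosteum, tendon and other dense connective tissue, was at 202, 193 and 90.3 TPM in sham and 1533, 1619 and 1477 TPM in pMx libraries (log2 fold change 3.33, SE 0.29, limma adjusted p = 8.44e-05). It was nearly absent from intact synovium, at 1.21, 0.49 and 0.62 TPM. The fetal fibrillin Fbn2 (2.03 to 17.7 TPM, log2 fold change 2.64) and thrombospondin 2 (Thbs2, 135 to 809 TPM, log2 fold change 2.61), a regulator of collagen fibril assembly, also rose. Elastin (Eln), the core of elastic fibres, fell and was at 271, 345 and 363 TPM in sham and 82.03, 94.5 and 130.0 TPM in pMx libraries (log2 fold change -1.68, SE 0.21, limma adjusted p = 0.000411). Fbln5, which helps assemble them, fell by 1.65 on the log2 scale and Efemp1, another fibulin, by 3.33, whereas the elastic fibre protein Emilin1 rose (52.1 to 205 TPM, log2 fold change 1.98) and the fibrillin Fbn1 was not called (0.80), both chosen after their values were seen.

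Among 42 proteoglycan and hyaluronan genes, 13 rose and 5 fell. Several of those that rose act on hyaluronan or bind it. Versican (Vcan), the provisional-matrix proteoglycan, was at 60.4, 53.3 and 37.8 TPM in sham and 143, 151 and 127 TPM in pMx libraries (log2 fold change 1.48, SE 0.17, limma adjusted p = 0.000279). Tnfaip6, which transfers heavy chains onto hyaluronan, rose from 32.1 to 154 TPM, and Cemip, which degrades hyaluronan, from 6.97 to 32.4 TPM. The small leucine-rich protein Podnl1 went from 8.64 to 66.7 TPM. The heparan sulphate proteoglycan Gpc3 fell most (17.1 to 0.81 TPM, log2 fold change -3.32).

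Of 51 metalloproteinases and inhibitors, 10 rose and 5 fell. Collagenase 3 (Mmp13) was at 25.4, 44.8 and 9.83 TPM in sham and 170.3, 119 and 139 TPM in pMx libraries (log2 fold change 2.60, SE 0.45, limma adjusted p = 0.00231). The macrophage elastase Mmp12 was at 30.7, 44.4 and 7.66 TPM in sham and 160.4, 122 and 138 TPM in pMx libraries, the aggrecanase Adamts4 rose from 6.79 to 33.4 TPM and Adam12 from 18.9 to 120.3 TPM. Mmp27 was at 20.7, 18.6 and 21.6 TPM in sham libraries and listed at 0 in every pMx library, so no fold is given. In the plasminogen system the inhibitor Serpine2 rose (139.5 to 508 TPM, log2 fold change 1.88), and tissue factor (F3), which starts clotting, fell (48.3 to 4.5 TPM, log2 fold change -3.19). Among integrins, Itga11 and Itga5, the alpha chains of a collagen and of the fibronectin receptor, were called higher (2.51 and 1.15), and 4 others lower, among them Itga8 and Itgb8 (-1.59 and -1.67).

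Cell division genes rose almost without exception. Of 48 mitosis and spindle genes, 44 were called higher, and over the 17 alternative analyses this number stayed between 43 and 45. Cdk1, the kinase that drives entry into mitosis, was at 20.3, 23.8 and 15.5 TPM in sham, 73.2, 67.1 and 72.7 TPM in pMx and 5.03, 6.24 and 5.06 TPM in intact libraries (log2 fold change 1.80, SE 0.14, limma adjusted p = 6.31e-05). The proliferation antigen Mki67 was at 6.44, 9.09 and 4.36 TPM in sham and 24.4, 23.1 and 22.6 TPM in pMx libraries (log2 fold change 1.72, SE 0.21, limma adjusted p = 0.000395). For both genes the 3 pMx libraries lay above all sham libraries, and the sham libraries above all intact ones. The median log2 fold change of the list was 1.44, and the members kept within a narrow band between 0.29 and 1.81. Of the 4 members not called, Bub1, Mad2l1 and Smc2 passed the adjusted p with log2 fold changes of 0.98, 0.89 and 0.68, and Cdc25b did not (0.29, adjusted p = 0.137 from limma). They fall outside the rule for named genes and are given to complete the count.

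Genes of DNA replication had a median log2 fold change of 0.95. Among 48, 22 were called higher and 43 passed the adjusted p alone. The ribonucleotide reductase subunit Rrm2 was at 9.43, 13.5 and 4.9 TPM in sham and 38.9, 32.2 and 38.4 TPM in pMx libraries, and thymidine kinase (Tk1) rose from 10.3 to 41.1 TPM. Pcna, the replication clamp, was not called (log2 fold change 0.26), at 93.6, 84.7 and 85.2 TPM in sham and 104, 99.5 and 113 TPM in pMx libraries. Among inhibitors of the cell cycle, Cdkn2a and Cdkn2b were the 2 called higher (2.803 to 10.3 TPM, log2 fold change 1.57 and 2.45 to 6.84 TPM, log2 fold change 1.19), and the p53 target Cdkn1a was not called (0.46).

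The promoters of the mitosis genes carry a known signature. The cell cycle homology region (CHR, TTTGAA) and the CCAAT box (CCAAT) are bound by complexes that time transcription to the G2 phase and mitosis. Promoter sequences of 300 bases, from 250 before to 50 after the start, were taken from RefSeq (build GRCr8) for 13298 of the tested genes. The CHR was found, on either strand, in 30 of the 42 mitosis promoters available (71.4%) against 12.7% of all, the CCAAT box in 32 (76.2%) against 37.4%, and both in 25 (59.5%) against 5.16%. The motifs were chosen after the data were seen and were counted separately. Their excess goes with the choice of a mitosis list and is no result about pMx against sham. Ccnb2, chosen after its values were seen, was at 10.4, 13.9 and 8.72 TPM in sham and 35.9, 30.3 and 32.4 TPM in pMx libraries (log2 fold change 1.51). Cdk1 and Ccnb2, which encodes a cyclin partner of the kinase, are shown because both motifs lie close to their starts. The 150 bases before each start follow 5′ to 3′ on the strand of the gene, with matches to either motif in capitals (ATTGG is CCAAT read on the other strand).
Cdk1, plus strand, chr20:19265143-19265292: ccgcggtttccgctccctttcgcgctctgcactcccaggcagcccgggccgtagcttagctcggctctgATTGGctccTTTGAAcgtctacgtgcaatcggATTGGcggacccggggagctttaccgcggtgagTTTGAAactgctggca
Ccnb2, minus strand, chr8:79981659-79981808: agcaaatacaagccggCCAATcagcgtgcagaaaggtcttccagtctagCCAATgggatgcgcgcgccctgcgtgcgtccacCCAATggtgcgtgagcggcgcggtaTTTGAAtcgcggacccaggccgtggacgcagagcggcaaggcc
In Cdk1 the CHR matches began 72 and 16 bases before the start, and in Ccnb2 43 bases before it. Of the 427 genes called higher that had a promoter, 21.8% held a CHR. Outside the proliferation lists the share was 17.2% of 372, beside 12.7% of all. Cell division genes absent from those lists were not removed from the 372.

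**Figure D4:**
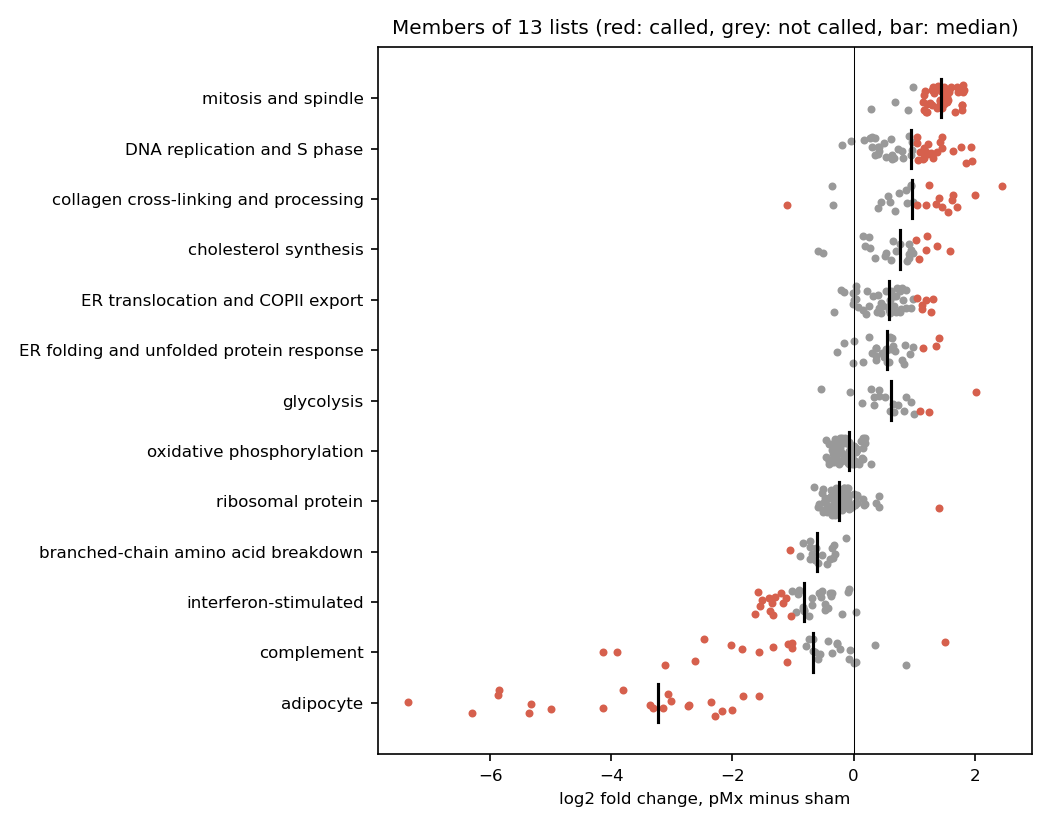
Log2 fold change of pMx minus sham for every tested member of 13 gene lists (red called, grey not called, black bar the list median). The mitosis list lies wholly to the right of 0 between 0.29 and 1.81, the ribosomal and oxidative phosphorylation lists cluster near 0 and all 22 adipocyte genes lie below -1.5.

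Oxidative phosphorylation and ribosomal protein genes were called in few cases, and glycolysis genes more often. In oxidative phosphorylation limma called 0 of 75 genes, 7 were lower by the adjusted p alone, 10 had an unadjusted p below 0.05 and the median was -0.08. Of 82 ribosomal protein genes, 33 were lower by the adjusted p alone but none by the fold threshold, and the list median was -0.23. Only Rpl39l, a paralogue with restricted expression, was called, as higher (27.3, 16.7 and 20.5 TPM in sham, 52.7, 55.2 and 66.01 TPM in pMx libraries). It shares sequence with Rpl39, so its reads are uncertain. The median log2 fold change of glycolysis genes was 0.62, and 9 of 20 were higher by the adjusted p alone, against 1 lower. The 3 called higher (15%) were Slc16a3, Pgk1 and Aldoc, and without sham replicate 3 only 1 of 20 was called. Lactate dehydrogenase (Ldha), the last step of fermentative glycolysis, was at 416, 419 and 342 TPM in sham and 719, 659 and 719.6 TPM in pMx libraries and was not called (adjusted p = 0.0719 from limma).

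Among hypoxia-response genes, Ca9, a carbonic anhydrase induced by low oxygen, stood out. It was at 0.94, 1.69 and 0.57 TPM in sham, 22.6, 12.4 and 25.1 TPM in pMx and 0.73, 0.62 and 0.24 TPM in intact libraries (log2 fold change 3.32, SE 0.29, limma adjusted p = 8.5e-05). The others did not follow as a block, with Vegfa at 0.42 and Bnip3 at -0.32 on the log2 scale and 4 of 21 called higher, of which P4ha1 and Loxl2 also belong to collagen processing. Besides Ca9, Ankrd37 completed the 4 (3.95 to 11.8 TPM, log2 fold change 1.40). Stc2 was called lower (5 to 1.997 TPM, log2 fold change -1.05), but not without sham replicate 1 or 3 or pMx replicate 1 or 2.

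Genes of cholesterol synthesis and uptake were higher in most cases. Of 25, 6 were called higher and 18 passed the adjusted p as higher, against 2 as lower. Squalene epoxidase (Sqle), an enzyme of sterol synthesis, was at 7.91, 6.8 and 6.47 TPM in sham, 22.7, 16.6 and 20.4 TPM in pMx and 4.58, 5.83 and 4.9 TPM in intact libraries (log2 fold change 1.37, SE 0.14, limma adjusted p = 0.000154). The demethylase Cyp51, which acts later in the same pathway, rose by 1.21 on the log2 scale. The sterol regulatory element TCACNCCAC, searched on either strand, was in none of the 17 promoters of this list that could be read, and in 1.10% of all. With so few promoters and a share this low, the count cannot set the list apart from other genes, and no conclusion is drawn from it.

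Serine, one-carbon and related amino acid genes were called in both directions, 6 of 25 higher and 2 lower, or 1 lower without pMx replicate 2. Pycr1, which makes the proline that collagen is rich in, was at 11.96, 17.3 and 12.6 TPM in sham and 45.5, 40.8 and 42.2 TPM in pMx libraries (log2 fold change 1.57, SE 0.13, limma adjusted p = 7.08e-05), and Aldh18a1, the enzyme before it, rose from 27.7 to 72.97 TPM. The mitochondrial folate enzymes Mthfd2 and Aldh1l2 and the amino acid transporter Slc7a5 rose by 1.54, 1.55 and 1.40. Phgdh, the first enzyme of serine synthesis, fell from 37.1, 38.8 and 29.98 to 4.53, 3.65 and 6.2 TPM (log2 fold change -2.66, SE 0.46, limma adjusted p = 0.00232). Branched-chain amino acid breakdown was lower by the adjusted p in 16 of 18 genes (median -0.60), although only Aldh6a1 was called. Pyruvate carboxylase (Pc), which is high in fat tissue, fell from 63.7 to 7.45 TPM.

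Detoxification genes fell more often than they rose. Cytochrome P450 and phase II enzymes were called lower in 26 of 105 cases and higher in 2. The carboxylesterase Ces1d, expressed in fat and liver, was at 131, 115 and 105 TPM in sham and 0, 0.19 and 0.51 TPM in pMx libraries, the sulphotransferase Sult1a1 went from 89.4 to 2.59 TPM and Fmo1 from 19.5 to 0.567 TPM. Of 34 antioxidant genes 7 were lower and 2 higher. The former included Mgst1 (336 to 41.1 TPM, log2 fold change -2.99) and the extracellular superoxide dismutase Sod3 (194 to 55.3 TPM, log2 fold change -1.79). Of the 2 that rose, the metallothionein Mt1 (115 to 314 TPM, log2 fold change 1.49) binds metals and haem oxygenase (Hmox1) breaks down haem. Hmox1 was at 112, 135 and 80.03 TPM in sham and 475, 349 and 619.8 TPM in pMx libraries (log2 fold change 2.12, SE 0.24, limma adjusted p = 0.000277). Nqo1 and Gclc, the standard targets of the antioxidant regulator NRF2, were not called.

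**Figure D5:**
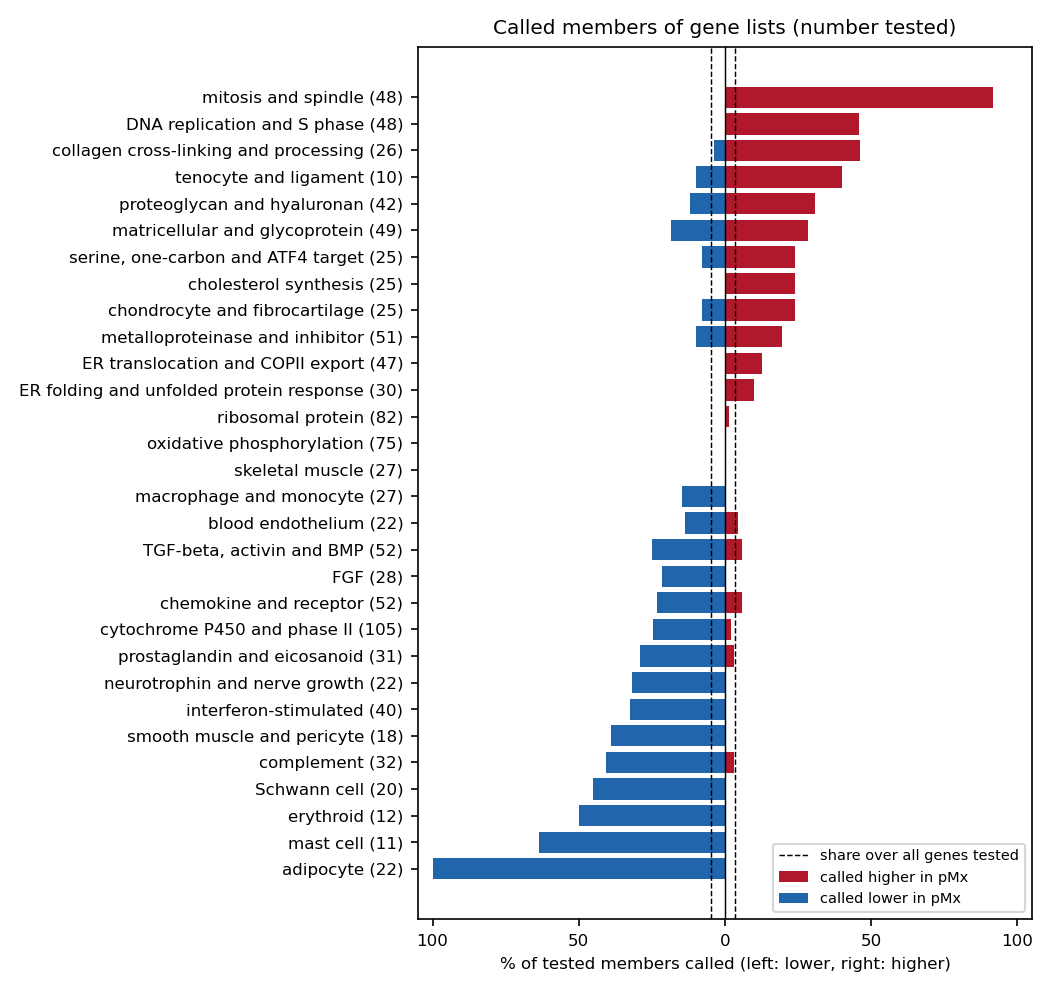
Share of tested members called lower (blue, left) and higher (red, right) in pMx for 30 gene lists, with the number tested in brackets. Dashed lines mark the shares over all genes, 3.36% higher and 4.85% lower. The mitosis list reaches 91.7% higher and the adipocyte list 100% lower.

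Growth factor families were called in part, with both ligands and secreted antagonists among the changes. In the TGF-beta family the 3 TGF-beta ligands were not called, with log2 fold changes of 0.54, 0.45 and 0.02 for Tgfb1 to Tgfb3. Inhba, the chain of activin A, was at 18.03, 20.02 and 14.6 TPM in sham, 75.1, 70.8 and 81.5 TPM in pMx and 18.4, 24.02 and 24.4 TPM in intact libraries (log2 fold change 2.06, SE 0.14, limma adjusted p = 3.1e-05). Its antagonist follistatin (Fst) fell from 12.7, 16.3 and 19.3 to 2.26, 2.08 and 3.94 TPM (log2 fold change -2.20). The BMP antagonists Chrdl1 and Chrdl2 went opposite ways (22.9 to 2.51 TPM, log2 fold change -2.79 and 0.843 to 4.28 TPM, log2 fold change 1.51), and 13 of 52 genes of the family were lower against 3 higher.

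In the Wnt family 6 of 58 genes rose and 8 fell. The non-canonical ligand Wnt5a (3.72 to 11.1 TPM, log2 fold change 1.37) and its receptor Ror2 (6.73 to 21.9 TPM, log2 fold change 1.56) rose together. Of the secreted inhibitors, Sfrp1 rose (7.46 to 21.6 TPM, log2 fold change 1.41), and Sfrp4 (366 to 103 TPM, log2 fold change -1.83), Sfrp5 (4.9 to 0.23 TPM, log2 fold change -2.27) and Dkk2 (11.7 to 0.78 TPM, log2 fold change -2.80) fell. FGF genes were called only as lower (6 of 28). The fibroblast-derived ligand Fgf10 was at 3.55, 3.61 and 9.26 TPM in sham and listed at 0 in all pMx libraries, Fgf7 fell from 34.6 to 14.3 TPM and Fgf1 from 8.93 to 1.22 TPM. In the IGF system Igf1 itself was not called (191 and 208 TPM), the growth hormone receptor Ghr (105 to 20.4 TPM, log2 fold change -2.31) and the binding proteins Igfbp5 (796 to 194 TPM, log2 fold change -2.03) and Igfbp6 (1348 to 562 TPM, log2 fold change -1.26) fell, and Igf2r, which clears IGF2, rose (37.4 to 89.5 TPM, log2 fold change 1.26). The IGF list had 5 of 19 genes lower, or 3 without sham replicate 3. For axon guidance genes, the counts were 6 higher and 5 lower of 71, with the netrin Ntn1 falling furthest, from 95.6, 74.2 and 115 to 7.95, 9.09 and 8.7 TPM (log2 fold change -3.30, SE 0.15, limma adjusted p = 1.04e-05), and Sema7a and Ephb3 rising (1.69 and 1.86).

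All called eicosanoid genes were lower except Ptgs2. The inducible cyclooxygenase Ptgs2, the first step of prostaglandin synthesis under stimulation, was at 1.16, 1.18 and 0.54 TPM in sham, 15.1, 6.3 and 18.5 TPM in pMx and 0.92, 0.79 and 0.34 TPM in intact libraries (log2 fold change 2.77, SE 0.35, limma adjusted p = 0.000457). Every pMx library exceeded every other library. Of the remaining 30 genes, 9 were called lower, including the phospholipase Pla2g2a (39.98 to 3.44 TPM, log2 fold change -3.18), the prostacyclin synthase Ptgis (13.98 to 1.83 TPM, log2 fold change -2.35) and the receptor Ptger3 (10.5 to 0.313 TPM, log2 fold change -3.13). Hpgds, another of the 9, is also on the mast cell list. Ptgs1, the constitutive cyclooxygenase, was at 33.4, 28.4 and 32.8 TPM in sham and 15.9, 15.4 and 16.1 TPM in pMx libraries and was not called (log2 fold change -0.95, or -1.02 and called without sham replicate 2).

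Chemokine genes fell in 12 of 52 cases and rose in 3. Those that fell included Ccl19, which guides cells along lymphatics (15.8 to 0.873 TPM, log2 fold change -3.15), and the eosinophil attractants Ccl11 and Ccl24 (14.1 to 0.757 TPM, log2 fold change -3.10 and 22.97 to 1.38 TPM, log2 fold change -3.38). Those that rose were the inflammatory ligands Ccl12 and Ccl3 and the receptor Cxcr4, which was at 23.6, 30.8 and 18.3 TPM in sham and 54.8, 46.96 and 61.97 TPM in pMx libraries (log2 fold change 1.16, or 0.98 and not called without sham replicate 3). Among interleukins the alarmin Il33 fell, from 106, 103 and 116 to 23.4, 24.02 and 15.2 TPM (log2 fold change -2.35, SE 0.17, limma adjusted p = 3.84e-05), and its receptor Il1rl1 rose (16.5 to 40.3 TPM, log2 fold change 1.29). In the TNF superfamily the osteoclast factor RANKL and its decoy receptor moved in opposite directions. Tnfsf11 (RANKL) rose from 2.14, 1.31 and 0.53 to 5.15, 7.34 and 5.87 TPM (log2 fold change 1.66, SE 0.24, limma adjusted p = 0.00105), and Tnfrsf11b fell from 19.2, 17.5 and 21.4 to 8.17, 7.23 and 5.7 TPM (log2 fold change -1.35, SE 0.13, limma adjusted p = 0.000146). The osteoclast list itself had none of 9 genes called by limma, with an unadjusted p below 0.05 for 5 and with Acp5 at 74.3 TPM in sham and 122 TPM in pMx (log2 fold change 0.74).

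Complement genes fell in 13 of 32 cases, with a median log2 fold change of -0.68. The 1 called higher was the lectin pathway protease Masp1 (6.51 to 19.6 TPM, log2 fold change 1.5, limma adjusted p = 0.0495), and its call was lost in 9 of the 17 alternative analyses, including whenever 1 sham or pMx library was left out. The central component C4b was at 413, 357 and 432 TPM in sham, 26.4, 30.5 and 20.9 TPM in pMx and 467, 388 and 255 TPM in intact libraries (log2 fold change -3.91, SE 0.22, limma adjusted p = 1.95e-05). Factor B (Cfb) fell from 24.5 to 2.09 TPM, and Cfd, a complement protease that fat cells secrete, from 1636 to 96.8 TPM. The C1q chains C1qa, C1qb and C1qc, which macrophages make, were not called, with log2 fold changes from -0.73 to -0.35.

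Interferon-stimulated genes were called lower in 13 of 40 cases and higher in none, and 26 were lower by the adjusted p alone. The call was sensitive to single libraries, with 7 lower without pMx replicate 3 and 8 without sham replicate 3. The antiviral GTPase Mx2 was at 12.1, 9.51 and 25.5 TPM in sham and 3.69, 5.24 and 3.73 TPM in pMx libraries (log2 fold change -1.57, SE 0.34, limma adjusted p = 0.00743), and Ifi27l2b went from a mean of 271 to 91.4 TPM. Gbp5, a guanylate-binding protein of interferon responses, was at 10.1, 7.97 and 11.2 TPM in sham and 2.61, 2.56 and 2.74 TPM in pMx libraries. The interferon-stimulated response element (ISRE, searched on either strand as GAAA, any 2 bases and GAAA) was in 19 of 28 promoters of this list (67.9%) against 3.02% of all. This excess goes with the choice of an interferon list and is no result about pMx against sham. Called and uncalled members were not counted apart. Gbp5 and Ifi44, another interferon-induced gene (33.1 to 12.4 TPM, log2 fold change -1.33), illustrate where it lies in the 150 bases before the start, with the match in capitals (TTTC, 2 bases and TTTC when read on the other strand).
Gbp5, plus strand, chr2:233910849-233910998: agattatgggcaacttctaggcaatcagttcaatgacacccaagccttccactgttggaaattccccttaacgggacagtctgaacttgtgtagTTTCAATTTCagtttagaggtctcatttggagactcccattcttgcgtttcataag
Ifi44, minus strand, chr2:243303841-243303990: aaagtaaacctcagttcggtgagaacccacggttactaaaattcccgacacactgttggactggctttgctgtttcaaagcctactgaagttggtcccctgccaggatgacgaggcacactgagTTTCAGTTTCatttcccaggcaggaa
The match began 56 bases before the start in Gbp5 and 26 bases before it in Ifi44. Among genes called lower outside the list, 4.38% of 593 promoters held the element.

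Transcription factors of the mesenchyme changed in 13 of 67 cases, 6 higher and 7 lower. Six2, a factor of skeletal and tendon progenitors, was at 0.56, 1 and 0.54 TPM in sham and 8.05, 6.64 and 7.51 TPM in pMx libraries (log2 fold change 2.31, SE 0.49, limma adjusted p = 0.00688), and Runx1 rose from 17.9 to 49.97 TPM. Those that fell included the fat regulators Pparg (48.4 to 6.58 TPM, log2 fold change -2.71) and Ebf2 (11.4 to 3.06 TPM, log2 fold change -1.59) and the glucocorticoid-responsive Klf15 (14.2 to 2.2 TPM, log2 fold change -2.25). On a list of 14 genes induced by glucocorticoids, 4 were called lower and 0 higher. Among the 4, Tsc22d3 was at 139.6, 129 and 162 TPM in sham and 58.2, 62.1 and 64.1 TPM in pMx libraries. Zbtb16, also called, went from 6.83 to 0.547 TPM. By the adjusted p alone, 8 of the 14 were lower and 2 higher, so the list did not move as a block. Of 31 Hox genes, which mark position along the body and limb, Hoxd10 alone was called (3.79, 3.46 and 2.66 TPM in sham, 11.5, 9.59 and 12.4 TPM in pMx libraries). That share, 3.23% higher, was near the 3.36% over all genes. Of 27 immediate-early genes only Fosl1 was called, as higher (0.877 to 4.66 TPM, log2 fold change 1.62), and Fosb was not (-0.61). Here too the share called higher, 3.70%, was near that over all genes.

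Solute carriers were higher in 12 (3.88%) and lower in 17 (5.5%) of 309 cases, and ion channels in 4 (3.74%) and 10 (9.35%) of 107. The zinc transporters Slc39a14 and Slc39a13 were among the increases (25.6 to 75.2 TPM, log2 fold change 1.55 and 37.8 to 109.7 TPM, log2 fold change 1.52), and Slc7a10, an amino acid carrier of fat cells, fell furthest (25.2 to 0.133 TPM, log2 fold change -4.54). Lysosomal genes were called in 1 of 47 cases, the protease Ctsl, which fell from 1811, 1483 and 1853 to 813, 819.7 and 771 TPM (log2 fold change -1.09, SE 0.11, limma adjusted p = 0.000194).

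Other signalling and structural lists were called in part, most of them in both directions. Laminin and basement membrane genes were higher in 4 of 23 cases, or 2 without sham replicate 3, and lower in 2, and the calls lost without that library were those of the basement membrane proteoglycan Hspg2 (78.7 to 173 TPM, log2 fold change 1.13, 0.99 without it) and the laminin chain Lamb1 (54.3 to 114 TPM, log2 fold change 1.07, 0.95 without it). Vessel growth factors were higher in 4 and lower in 4 of 33 cases, and the former number was 2 without pMx replicate 3. Angptl2 and Vegfd are examples of either direction (184 to 472 TPM, log2 fold change 1.37 and 12.5 to 3.68 TPM, log2 fold change -1.53). Keratin and epithelial junction genes were lower in 7 of 59 cases and higher in 2, of which Cldn23 rose most (1.18 to 8.46 TPM, log2 fold change 2.16). Actin and contractility genes were called in 5 of 32 cases, with the filament-bundling Fscn1 higher (53.3 to 169 TPM, log2 fold change 1.65) and Ccn2, a target of the mechanical regulator YAP, lower, at 699, 531 and 732 TPM in sham and 284, 246 and 241 TPM in pMx libraries (log2 fold change -1.34, SE 0.15, limma adjusted p = 0.0003). Clock genes were called in 1 of 19 cases, Hlf, which fell (6.37 to 0.99 TPM, log2 fold change -1.90). That share, 5.26% lower, was near the 4.85% over all genes.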

How the data were processed

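RNA of 9 rat knee tissue samples (3 intact, 3 sham and 3 pMx, 1 week after surgery) was sequenced by BGI from oligo-dT-captured mRNA. The authors deposited TPM values, computed within the Dr. Tom system from reads aligned with HISAT2 2.0.4 to mRatBN7.2 per the submitters' processing notes. The counting tool, the annotation and the use of strand are not given in the sources used here. TPM is scaled to a fixed total, so a rise of abundant genes lowers others, and depth is unknown. Precision therefore rests on the spread between the 3 libraries of each group, which the labels call biological replicates. In the fit this spread was estimated over all 9 libraries, the intact ones included.

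From the deposited TPM values log2(TPM + 1) was computed for genes above 0 TPM in at least 3 libraries (16512 of 17602), and group means were fitted over all 9 libraries with limma 3.58.1 in R 4.3.3 (lmFit, contrasts.fit, eBayes with trend, Benjamini-Hochberg adjustment over all genes tested). Fold changes on this scale understate those of genes near 0 TPM. Standard errors are those of limma. Figures were drawn with matplotlib 3.10.9. All lists were written from general knowledge, and the members and lists were chosen with earlier results of these data known. Lists are described by counts and medians, without a set test. Genes named in the text are the first 3 of each list, up to 4 called members with the largest increase and decrease in each, the 20 largest increases and decreases of all genes whose groups did not overlap (excluding collagens and unnamed loci) and the 10 highest genes of each group. Others are said to be chosen after their values were seen. Not all named genes are reported. Ccnb2 and Ifi44 were chosen for their promoters after the values were seen. The calculation was tested on simulated data.

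Alternatives were a pseudocount of 0.1, a mean of at least 1 TPM, no filter, median-of-ratios scaling, rescaling without collagen, fat, muscle and globin genes, the 6 libraries alone, the replicate number as a block and leaving out each library. A skeletal muscle covariate was added after seeing the data. Of the gene identifiers, 17419 (99.0%) matched RefSeq (GRCr8), whose promoter table was used for sequences only.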

Additional observations from a re-analysis of the deposited data

How the results depend on the processing

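The counts of called genes (554 higher, 801 lower) moved by over 1.5 times under 1 setting, the pseudocount of 0.1, which gave 837 higher and 1392 lower. Under the other planned settings they ran from 542 to 578 higher and from 753 to 812 lower, and leaving out each library in turn gave 466 to 619 higher and 755 to 829 lower, the fewest without sham replicate 3. The muscle covariate, added after seeing the data, gave 561 and 815. The replicate number as a block gave 547 higher and 796 lower and kept 1340 of the 1355 calls. Same-numbered pMx and sham libraries deviated from their group means with correlations of 0.03, 0.37 and 0.48 across genes. For pMx replicates 2 and 3 the same-numbered sham library gave the highest value, whereas pMx replicate 1 correlated more with sham replicate 2 (0.31). The remaining differently numbered pairs ran from -0.47 to 0.004. The sources do not say that same-numbered libraries share an animal, so the numbers were not taken as pairs. No call took the opposite direction under any of the 17 alternatives. Among the named genes that were not called, the log2 fold change turned sign with a library left out for Acta1 (-1.47 to 1.55), Prg4 (-0.022 to 0.32) and Tgfb3 (-0.0399 to 0.105), and the cause was not tested. Depth limits genes near 0 TPM most, and with no read numbers a value of 0 cannot be given an upper limit.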

Other observations

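Most called genes, 849 of 1355, were in none of the lists, and the largest changes among them are described here as values. Myoc, a secreted glycoprotein of the eye and of peripheral nerve sheath and muscle, fell from 244, 153 and 298 TPM in sham libraries to 0.24, 0.24 and 0.24 TPM in pMx libraries (log2 fold change -7.50, SE 0.24, limma adjusted p = 3.63e-06), and it was at 643, 566 and 420.3 TPM in intact synovium. Carbonic anhydrase 3 (Ca3), abundant in fat and slow muscle, fell from 2762, 2252 and 1682 to 28.7, 20.4 and 33.9 TPM. The skeletal muscle list, whose sum varied widely within both groups, had no gene called, and the source of the Ca3 decrease was not tested. Mcpt1l1, a mast cell protease, fell from 157 to 3.797 TPM, and Obp3, an odorant-binding protein, was at 43.3, 23.9 and 23.1 TPM in sham libraries and listed at 0 in every pMx library. Cst3, cystatin C, an inhibitor of cysteine proteases that was among the 10 highest genes of the sham libraries, fell from 7968, 7219.6 and 8488 to 2034, 2299 and 2167 TPM.

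Several genes that rose most encode secreted or surface proteins. Ccbe1, which helps activate the lymphatic growth factor VEGF-C, rose from 4.91, 3.93 and 2.49 to 33, 40.01 and 32.3 TPM (log2 fold change 2.94, SE 0.18, limma adjusted p = 2.64e-05). Enpp1, which makes the mineralisation inhibitor pyrophosphate, rose from 46.03, 48.04 and 23.8 to 236, 225 and 249 TPM (log2 fold change 2.62, SE 0.24, limma adjusted p = 0.000119). Prss35, a secreted protein of the trypsin family, and Draxin, an axon guidance protein, rose from means of 10.2 and 1.72 TPM to 74.5 and 15.99 TPM. Anxa8 rose from 13.2 to 76.5 TPM and Plekhg4 from 4.87 to 34.3 TPM.

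Grouping the genes in no list by the letters that begin their symbols gave 231 stems with at least 8 tested members. Outside the collagens, the stem with the highest share of called members was Tubb, the beta-tubulins, with 3 of 8 higher and 1 lower. Next was the stem Ca, with 3 of 8 lower. The stems Adcy, Lgals and Rassf followed with 30% called, and then Clec with 28.6%. Rassf genes were lower in 3 of 10 cases, and Akr genes, aldo-keto reductases, in 3 of 12. The stems Anxa, P and Rtn had the same share called as Akr (25%). The stems were examined after the values were seen. Over all genes tested 8.21% were called. Ranking many small stems puts high shares at the top in any case, so no conclusion is drawn from the order.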
